A study of Mus musculus with 10 samples.

Results

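The hexokinase family was defined as the genes Hk1, Hk2, Hk3 and Hkdc1 by Ensembl identifier, and 3 of these 4 genes had a row among the 18047 rows of the deposited table. Hkdc1 had none and was not analysed here. Each row held at least 101 reads summed over the 10 libraries, and whether Hkdc1 fell below such a cut is not given. The cell line was 4T1, which derives from a BALB/c mammary carcinoma, and its cells were implanted into BALB/c mice for 3 weeks before RNA of the tumours was sequenced. In 5 libraries the 4T1 cells carried a knocked-out gene (KO, 8609756 to 16066866 reads), and in the other 5 they were wild type (WT, 11772430 to 19934428 reads). The hosts carried no stated modification, all libraries were of frozen, sectioned tumour tissue and carried the batch label 1, and neither the number of clones behind the KO cells nor the animal behind each library is given in the labels. The series title concerns claudins and the exclusion of immune cells from breast tumours, and the hexokinases bear on it because one of them is a leukocyte gene. The family was chosen by its KO against WT values, in which Hk3 stood out, so the values of that contrast are a description. Where the fit across all genes called a member, this is stated as part of that description and supports nothing. WT2 and WT5 share the library number 170, and whether they come from 1 tumour is not given.

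Hexokinases add a phosphate to glucose as it enters the cell and so feed glycolysis, the pentose phosphate pathway and glycogen synthesis. Hk1 is expressed in most tissues, and Hk2 is the isoform of skeletal muscle and adipose tissue that many carcinomas express strongly and that hypoxia induces. Both can dock on the outer mitochondrial membrane through the channel protein VDAC. Hk3 is mainly a gene of granulocytes, monocytes and macrophages, and Hkdc1 is a related gene of some epithelia.

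Hk1 (ENSMUSG00000037012) lies on the minus strand of chromosome 10 from 62268855 to 62379908 on GRCm38, with 8532 bases of merged exons. Hkdc1 (ENSMUSG00000020080) is its neighbour on the same strand, from 62383137 to 62422491. Hk2 (ENSMUSG00000000628) lies on the minus strand of chromosome 6 from 82725025 to 82774454, with 5969 exonic bases. Hk3 (ENSMUSG00000025877) lies on the minus strand of chromosome 13 from 55005985 to 55021385, with 3682 exonic bases. Of these, 34 are shared with Unc5a and 157 bases of Hk1 with the antisense gene Hk1os, both on the plus strand. Whether the counting used strand is not given in the sources used here, so reads in those bases cannot be told apart from the partner's.

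The 250 bases before the annotated start of Hk2 and of Hk3 are shown because these are the most abundant member and the member whose level separated the genotypes. They come from RefSeq on GRCm38.p6, chr6:82774455-82774704 and chr13:55021386-55021635, both minus strand and written 5′ to 3′. Capitals mark matches, on either strand, to the core of the hypoxia response element (ACGTG), the PU-box core (GAGGAA), an ETS core (AGGAAGT), the CCAAT box (CCAAT) and the GC box (GGGCGG), and no match overlapped another.
Hk2: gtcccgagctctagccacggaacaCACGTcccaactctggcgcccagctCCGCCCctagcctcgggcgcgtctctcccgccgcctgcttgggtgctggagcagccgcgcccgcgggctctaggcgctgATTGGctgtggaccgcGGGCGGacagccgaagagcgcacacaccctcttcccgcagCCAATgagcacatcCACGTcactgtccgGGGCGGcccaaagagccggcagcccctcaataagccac
Hk3: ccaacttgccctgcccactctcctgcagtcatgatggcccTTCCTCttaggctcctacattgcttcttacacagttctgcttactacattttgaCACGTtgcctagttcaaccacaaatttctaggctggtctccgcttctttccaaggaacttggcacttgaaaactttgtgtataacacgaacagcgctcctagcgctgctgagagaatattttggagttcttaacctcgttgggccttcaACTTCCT
The Hk2 stretch held 69.6% G and C with 25 CpG pairs, and the Hk3 stretch 47.2% with 6. The Hk2 stretch held 2 hypoxia element cores, 2 CCAAT boxes and 3 GC boxes. The Hk3 stretch held 1 hypoxia element core, 1 PU-box core and 1 ETS core, and no CCAAT or GC box. A start region of Hk1, chr10:62340422-62340671, also held 1 PU-box core and no CCAAT or GC box. Another of Hk1, chr10:62379909-62380158, held none of these motifs. Among 32851 mouse start regions of the same length, 16.6% held the hypoxia element core, 23.3% the PU-box core, 7.69% the ETS core, 33.8% the CCAAT box and 32.7% the GC box. These motifs were chosen with the sequences in view, and a match describes letters, not binding.

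Hk3 was the member whose KO and WT libraries did not overlap. It had 234, 540, 298, 321 and 378 normalized counts in KO1 to KO5, against 128.0, 132.1, 230.1, 182.5 and 169.5 in WT1 to WT5. All 5 KO libraries lay above all 5 WT libraries, but the lowest, KO1, exceeded the highest WT library, WT3, by 3.37 normalized counts. The means were 354.1 ± 116.2 in the KO libraries and 168.4 ± 41.7 in the WT libraries (SD, n = 5 each), a ratio of 2.1 and a log2 difference of 1.04 ± 0.24 (SE, from limma on the log2 of the normalized count plus 1). Between 145 and 576 reads lay behind each value. KO1 had 167 reads, each worth 1.40 normalized counts, and WT3 had 237. The gap between these libraries is thus a few reads, and counting error alone could close it. Across all genes 0.686% separated as higher in KO, 0.736% as lower and 1.42% either way, and of the 3 hexokinases 1 did.

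Hk2, the muscle and carcinoma isoform, overlapped between genotypes. It had 2156, 2305, 1845, 1296 and 1178 normalized counts in KO1 to KO5, against 1150, 686, 1718, 2373 and 1760 in WT1 to WT5. The highest value was in WT4 and the lowest in WT2, so the WT libraries spanned the whole KO range. The means were 1756 ± 504 in KO libraries and 1537 ± 643 in WT libraries (SD, n = 5 each), a log2 difference of 0.26 ± 0.31 (SE).

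Hk1, the widely expressed isoform, also overlapped. It had 948, 1179, 1126, 809 and 726 normalized counts in KO1 to KO5, against 791, 524, 1161, 2073 and 772 in WT1 to WT5. WT4 stood highest, and WT2 lowest, as for Hk2. The means were 958 ± 196 in KO libraries and 1064 ± 608 in WT libraries (SD, n = 5 each), a log2 difference of -0.012 ± 0.31 (SE), which was 0.27 without WT4.

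**Figure D1:**
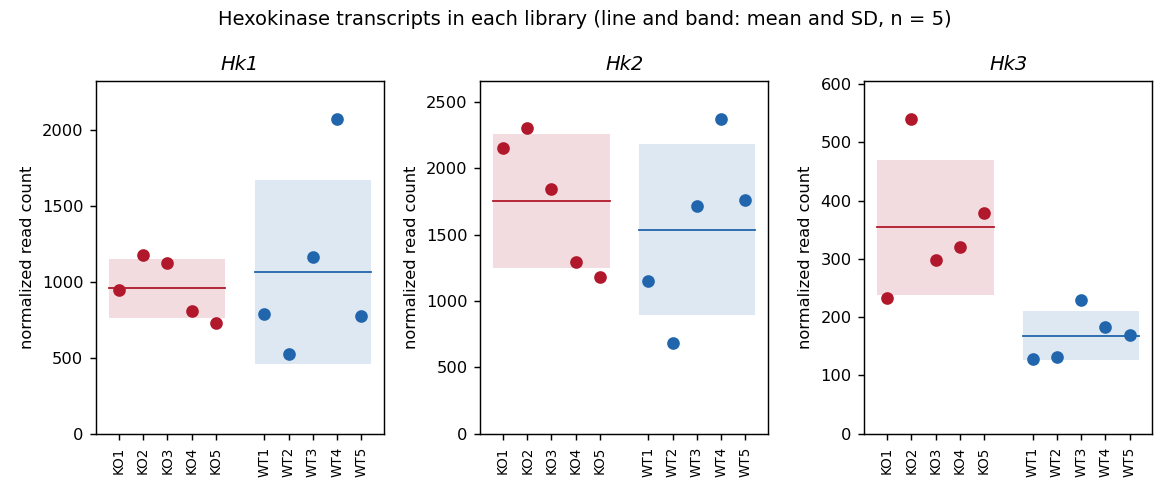
Normalized read counts (linear axes from 0) of Hk1, Hk2 and Hk3 in each of the 5 KO (red) and 5 WT (blue) libraries, with lines at the group means and bands of 1 SD. The Hk3 values of KO libraries begin at 234, just above the highest WT library at 230, while the Hk1 and Hk2 values of both genotypes overlap.

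In the fit across all genes limma called 1 of 17940 genes (0.00557%), Cobl, which was lower in KO, and 0 of the 3 hexokinases at an adjusted p under 0.05. At an unadjusted p under 0.05 it passed 6.5% of all genes and 1 of the 3 hexokinases, Hk3. On the recovered reads edgeR called 0 hexokinases (0.00557% of all genes) and DESeq2 called Hk3 as higher (0.674% of all genes, 0.145% as higher and 0.53% as lower). The family was chosen by this contrast, so nothing is read from these counts. A prefix, RESUB, whose meaning the labels do not give, marks the library names of WT1 to WT4 and of KO5. The log2 difference of Hk3 was 1.09 with that prefix in the model, 1.21 among the libraries that carry it (KO5 against 4 WT libraries), and 0.96 within the others (4 KO libraries against WT5). For Hk2 the same values were -0.054, -0.19 and 0.077, and for Hk1 they were -0.040, -0.46 and 0.38. Each value within a set of libraries rests on 1 library of 1 genotype, and its sign with it.

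Levels were compared between members per kilobase of merged exons, within each library. Hk2 had 294 ± 84.4 normalized counts per kilobase in KO and 258 ± 108 in WT, Hk1 112 ± 22.9 in KO and 125 ± 71.3 in WT, and Hk3 96.2 ± 31.6 in KO libraries and 45.7 ± 11.3 in WT libraries (SD, n = 5 each). Hk2 was above Hk1 in 10 of 10 libraries, 2.34-fold on average (exact sign-flip permutation test, two-sided, adjusted p = 0.00293 over 3 pairs), and above Hk3 in 10 of 10, 4.02-fold (adjusted p = 0.00293 by the same exact test). The unadjusted p of both, 0.00195, is the smallest that 10 libraries allow. With WT2 and WT5 averaged as 1 library the adjusted p of both was 0.00586 (exact sign-flip permutation test). Hk1 was above Hk3 in 8 of 10 libraries, 1.72-fold on average (exact sign-flip permutation test, adjusted p = 0.0117). The exceptions by merged exons were KO2 and KO5, where Hk3 had 147 and 103 normalized counts per kilobase and Hk1 138 and 85.1. Within the KO libraries alone the mean log2 difference of Hk1 over Hk3 was 0.25 ± 0.48 (SD, n = 5), less than the spread between libraries, and within the WT libraries alone it was 1.31 ± 0.59 (SD, n = 5). The difference between these values was not tested. The longest transcripts have 4278 bases for Hk1, 5513 for Hk2 and 3219 for Hk3. With these lengths the difference of Hk2 over Hk1 shrank to 0.34 on the log2 scale and that of Hk1 over Hk3 grew to 1.58. Hk1 was then above Hk3 in KO2 and KO5 as well, and above Hk2 in WT4.

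Hk3 made up 19.5 ± 5.85% of the summed level per kilobase of the 3 genes in KO libraries and 11.7 ± 3.56% in WT libraries (SD, n = 5 each). Its share ran from 11.8% in KO1 to 26.7% in KO5, against 7.18% in WT4 to 16.9% in WT2, so the shares of the genotypes overlapped although the counts did not. By merged exons Hk2 held the largest share in each library, at 58.0 ± 6.11% in KO and 59.9 ± 5.25% in WT. The share of Hk1 was 22.5 ± 2.02% in KO and 28.4 ± 5.06% in WT, with WT4 highest at 35.2%. All these shares depend on the length chosen. By the longest transcript (4278 bases for Hk1, 5513 for Hk2) Hk1 exceeded Hk2 in WT4, from counts of 2073 and 2373.

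**Figure D2:**
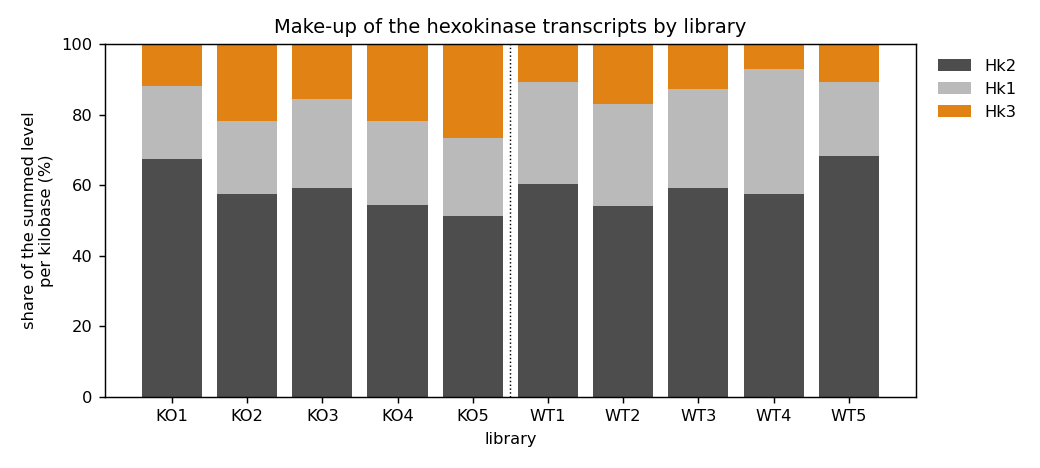
Share (%) of the summed normalized counts per kilobase of Hk2 (dark grey), Hk1 (light grey) and Hk3 (orange) in each library, KO libraries left of the dotted line. By the length of merged exons Hk2 holds 51.2% to 68.4% of the sum in every library. Hk3 reaches 26.7% in KO5 and at most 16.9% among the WT libraries.

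Beside Hk3, most members of several marker lists had fitted values that leaned to 1 genotype. The summed levels of each list named here overlapped between the genotypes and were not tested. Leukocyte markers mostly had higher fitted values in KO, their part in the Hk3 difference was not tested, and bulk RNA cannot tell more leukocytes from more Hk3 RNA in each. Of 15 tested neutrophil markers 14 had higher fitted values in KO (median log2 difference 0.77, where all tested genes had -0.008), with summed levels of 6511 to 11470 normalized counts in KO and 3726 to 10770 in WT. Monocyte and macrophage markers were higher in 12 of 14 (median 0.23), with sums of 37620 to 63920 in KO and 19620 to 66920 in WT, and its most abundant member per kilobase was Lyz2, the lysozyme gene of myeloid cells. Pan-leukocyte markers were higher in 10 of 11 (median 0.21), at 15280 to 19380 in KO and 11850 to 17620 in WT. T and NK cell markers were higher in 11 of 11 (median 0.76), at 639 to 1701 in KO and 399 to 736 in WT. limma called 0 members of these lists, with 2, 2, 1 and 6 higher at an unadjusted p under 0.05, where 2.83% of all genes passed as higher, and edgeR and DESeq2 called 0. The neutrophil gene Ly6g was at 0 in WT1 and between 3.62 and 26.7 normalized counts in the other libraries. Of 17 carcinoma epithelial markers 17 had lower fitted values in KO (median -0.82, 13 at an unadjusted p under 0.05, where 3.67% of all genes passed as lower, 0 called by limma and 1 by DESeq2) and sums of 15610 to 22700 in KO and 22360 to 43140 in WT. Keratinocyte markers had lower fitted values in 11 of 11 (median -4.14, 11 at an unadjusted p under 0.05, 0 called by limma and 6 by DESeq2). Their sums were 34.9 to 50.6 in KO and 39.1 to 7065 in WT. Only WT2, WT3 and WT5 were high, at 669, 7065 and 3516, while WT1 and WT4 were at 47.4 and 39.1. Of the 11 genes 7 were at 0 in 5 or more libraries, so the size of the median depends on the added count of 1. Adipocyte markers had lower fitted values in 11 of 12 (median -1.26, 1 at an unadjusted p under 0.05, 0 called). Their sums were 1292 to 8140 in KO and 1879 to 13700 in WT, but the median sum was higher in KO (4118) than in WT (3205). Only KO2 and KO5, at mean log2 levels of 4.84 and 4.16, lay below the lowest WT library at 6.51.

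With the neutrophil list level as a term the log2 difference of Hk3 was 0.84, with the monocyte and macrophage level 1.09, with the pan-leukocyte level 0.95 and with the carcinoma epithelial level 0.90. The epithelial level as a term moved the differences of Hk1 and Hk2 to 0.62 and 0.65. That level was itself lower in KO, at a mean log2 of 8.69 ± 0.53 against 9.64 ± 0.55 in WT (SD). This term and genotype therefore cannot be fully told apart. None of these 3 genes was called by limma in those fits.

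Across the 10 libraries, after the mean of each genotype was removed, Hk1 and Hk2 were correlated, and no relation of Hk3 with either passed the test. The Pearson correlation of Hk2 with Hk1 was 0.857 (exact permutation within genotype, p = 0.00681, adjusted p = 0.0204 over 3 pairs; Spearman's rho 0.806, exact permutation p = 0.0101, adjusted p = 0.0304), and 0.708 without the 2 libraries farthest from the median of Hk2. With 1 library left out r ran from 0.769 to 0.944. The adjusted exact permutation p was 0.0562 without KO2, 0.0573 without KO5, 0.0771 without WT2 and 0.05 without WT4, so the call was lost without any of these. In these fits r was 0.850, 0.848, 0.769 and 0.853, and fewer libraries allow fewer arrangements. With WT2 and WT5 averaged r was 0.878 (adjusted exact permutation p = 0.0125). Hk2 with Hk3 gave r = 0.395 (rho 0.285, adjusted exact permutation p = 0.261 and 0.449) and -0.0050 without the 2 farthest libraries, and Hk1 with Hk3 gave r = 0.427 (rho 0.406, adjusted exact permutation p = 0.261 and 0.382) and 0.440 without them. Library composition moved with Hk1 and Hk2: the strength with which a library favours long transcripts correlated with Hk2 at 0.803 and with Hk1 at 0.685, and with Hk3 at -0.071, as a description over 10 libraries. With trends of GC content and length removed from each library, Hk2 with Hk1 had r = 0.927 (exact permutation p = 0.000486, not adjusted). Pooled over both genotypes, Hk1 and Hk2 varied more than most genes of like level: their SD on the log2 scale was 0.57 and 0.58, above that of 86.7% and 91.1% of the 1000 nearest genes, against 60.5% for Hk3 at 0.40. By genotype the SD of Hk1 was 0.30 in KO and 0.75 in WT, where the pooled SD of genes of like level had a median of 0.35, so the spread of Hk1 came from the WT libraries, and that of Hk2 was 0.43 in KO and 0.69 in WT.

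**Figure D3:**
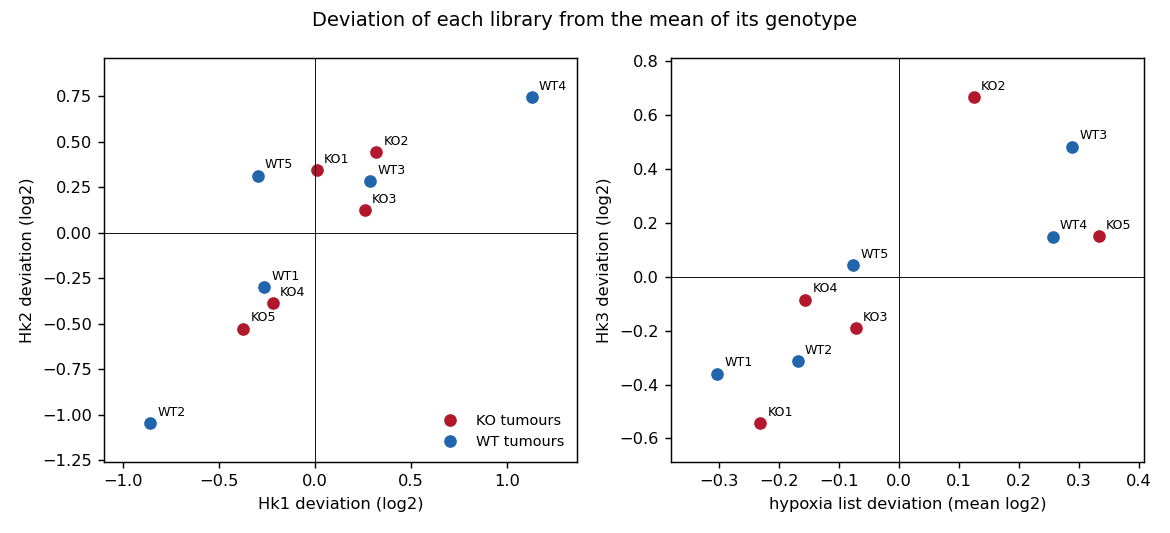
Deviation of each library from the mean of its genotype (log2), Hk2 against Hk1 on the left and Hk3 against the mean level of 14 hypoxia genes on the right, KO libraries in red and WT in blue. WT2 and WT4 mark the ends of the Hk1 and Hk2 relation (r = 0.857), and the right panel has r = 0.787, which did not pass adjustment over 36 pairs.

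The deviations of each member were then set against the mean level of 10 marker lists, of core glycolysis and of the hypoxia response. Of the 36 pairs, 0 passed at an adjusted p under 0.05 (exact permutation within genotype), and 1 had an unadjusted p under 0.05. That pair was Hk3 with the hypoxia response, at r = 0.787 over 10 libraries (exact permutation p = 0.0139, adjusted p = 0.5; rho 0.867, exact permutation p = 0.00465, adjusted p = 0.167; r 0.839 without the 2 farthest libraries). With GC content and length trends removed it was 0.634 (exact permutation p = 0.0739, not adjusted). Hk3 correlated at 0.494 with the T and NK cell list, at 0.346 with the neutrophil list, at -0.190 with the monocyte and macrophage list and at 0.191 with the pan-leukocyte list (adjusted exact permutation p = 0.781 each). Without the 2 libraries farthest from the median of the list these were 0.741, 0.112, 0.549 and 0.409, so the macrophage value changed sign. Hk1 was highest with carcinoma epithelium, at 0.630 (adjusted exact permutation p = 0.748), and without KO2 that pair reached 0.900 (adjusted exact permutation p = 0.0375), while it was 0.379 without WT4 (adjusted exact permutation p = 0.667) and 0.378 without WT2, WT3 and WT5 (adjusted exact permutation p = 0.913). Hk2, an isoform of muscle, correlated at -0.502 with the skeletal muscle list (adjusted exact permutation p = 0.781), and at -0.202 without WT2 (adjusted exact permutation p = 0.964). Hk1 had a like value with that list, at -0.512 (adjusted exact permutation p = 0.781). In WT2, whose muscle genes summed to 209400 normalized counts, both Hk1 and Hk2 were at their lowest.

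**Figure D4:**
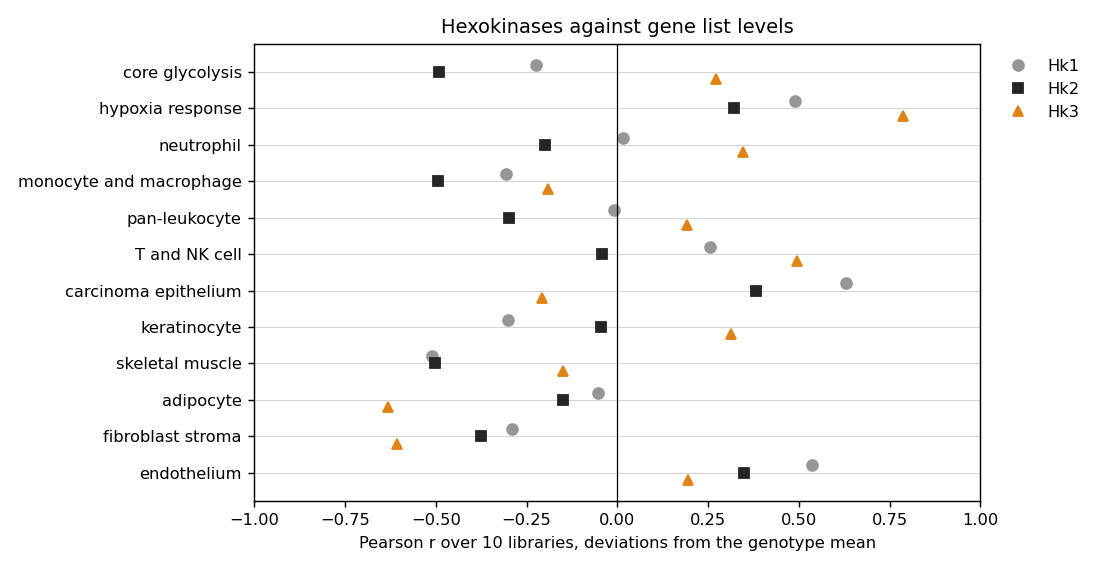
Pearson r over 10 libraries, after removal of the genotype means, of Hk1 (grey circles), Hk2 (black squares) and Hk3 (orange triangles) with the mean log2 level of 12 gene lists. The highest value is Hk3 with the hypoxia response at 0.787, and 0 of the 36 passed adjustment.

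Among the 12953 genes averaging 50 or more normalized counts, 5 were named whose deviations were most like those of Hk3 over the 10 libraries. The highest were the metalloprotease gene Adam8 (r = 0.900), Samd4 (0.892) and the xanthine dehydrogenase gene Xdh (0.885). Next came the lipase co-activator gene Abhd5 (0.880) and the interferon-inducible GTPase gene Gbp2 (0.877). Adam8 averaged 823 ± 349 across KO libraries and 565 ± 188 across WT libraries, and Gbp2 4665 ± 1210 across KO libraries and 3535 ± 1013 across WT libraries (normalized counts, SD, n = 5 each). For Hk2 they were the myosin gene Myo10 (0.991), Rprd2 (0.990), the integrin gene Itgb3 (0.988), Rad54l2 (0.979) and Ubap2l (0.979). For Hk1 they were Synpo, a gene of an actin-associated protein (0.991), the helicase gene Mov10 (0.986), Ccdc88b (0.981), the adenylyl cyclase gene Adcy3 (0.981) and Usp43 (0.977). These values share libraries, depth and base composition and are given as a description.

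The genes that act before, beside and after the hexokinases did not pass the test in either direction. Of 79 listed genes 72 were tested. limma called 0 of the 72 (at an unadjusted p under 0.05 the counts were 2 higher and 2 lower, where 2.83% of all genes passed as higher and 3.67% as lower), and edgeR and DESeq2 called 0. Core glycolysis had 10 higher and 7 lower fitted values (median 0.15). The most abundant per kilobase, Gapdh, Aldoa and Pkm, had log2 differences of 0.32, -0.35 and 0.23. Eno2, an enolase gene induced by hypoxia in many cells, had 140, 264, 181, 155 and 312.5 normalized counts in KO1 to KO5, against 108, 79.2, 234, 129 and 73.1 in WT1 to WT5. WT3 lay within the KO range.

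Among 8 tested glucose transporters 3 had higher and 5 lower fitted values (median -0.084). Slc2a1, the main transporter of carcinoma cells and the most abundant here, had 1824 ± 435 normalized counts in the KO libraries and 1577 ± 644 in the WT libraries (SD, n = 5 each). Slc2a3, a high-affinity transporter of neurons and leukocytes, had 119, 135, 121, 96.1 and 128 in KO1 to KO5, against 52.4, 61.0, 142, 90.5 and 66.5 in WT1 to WT5. WT3 was the highest library and the other WT libraries lay below all KO libraries. Slc2a4, the insulin-regulated transporter of muscle and fat, ranged over 7.86 to 38.8 normalized counts among KO libraries and 24.3 to 322 among WT libraries, highest in WT2. The muscle isoforms Pgam2, Pfkm and Eno3 had log2 differences of -1.63, -0.93 and -1.02, and in WT2 Pgam2 and Eno3 stood at 1499 and 5250, against at most 80.7 and 963 in any KO library. All 19 skeletal muscle markers had lower fitted values in KO. At an unadjusted p under 0.05 limma passed 0 of them, where 3.67% of all genes passed as lower. Their sums overlapped, at 873 to 22360 normalized counts in KO and 654 to 209400 in WT. WT3 was the lowest of all libraries and WT2 the highest.

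Of 6 other sugar kinase and glucose-6-phosphatase genes 3 had higher and 3 lower fitted values (median 0.074). Adpgk, whose enzyme phosphorylates glucose with ADP, had 575, 588, 529, 527 and 522 normalized counts in KO1 to KO5, against 427, 440, 464, 510 and 514 in WT1 to WT5. It was the 1 gene of the 72 whose genotypes did not overlap, where 1.42% of all genes did not, at a log2 difference of 0.22 ± 0.14 (SE), and limma did not call it (adjusted p = 0.872). The 21 genes of the glucose-6-phosphate branches had 10 higher and 11 lower values (median -0.042). Of 6 mitochondrial docking partners 4 were lower (median -0.22), among them Vdac1, the channel on which Hk1 and Hk2 dock, at 2275 ± 461 across KO libraries and 3059 ± 792 across WT libraries (SD, n = 5 each), with a log2 difference of -0.41 ± 0.22 (SE; limma adjusted p = 0.807). The docking list did not keep its direction: its median was 0.22, with 5 of 6 higher, among the libraries with the RESUB prefix and -0.0074 with the prefix in the model. Of 14 hypoxia response genes 10 were higher and 4 lower (median 0.26), with Bnip3 and Vegfa at 0.47 ± 0.23 and 0.43 ± 0.22 (SE, limma adjusted p = 0.784 and 0.796). The most abundant of them per kilobase, Ddit4, Bnip3 and Egln3, had log2 differences of -0.10, 0.47 and 0.21.

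**Figure D5:**
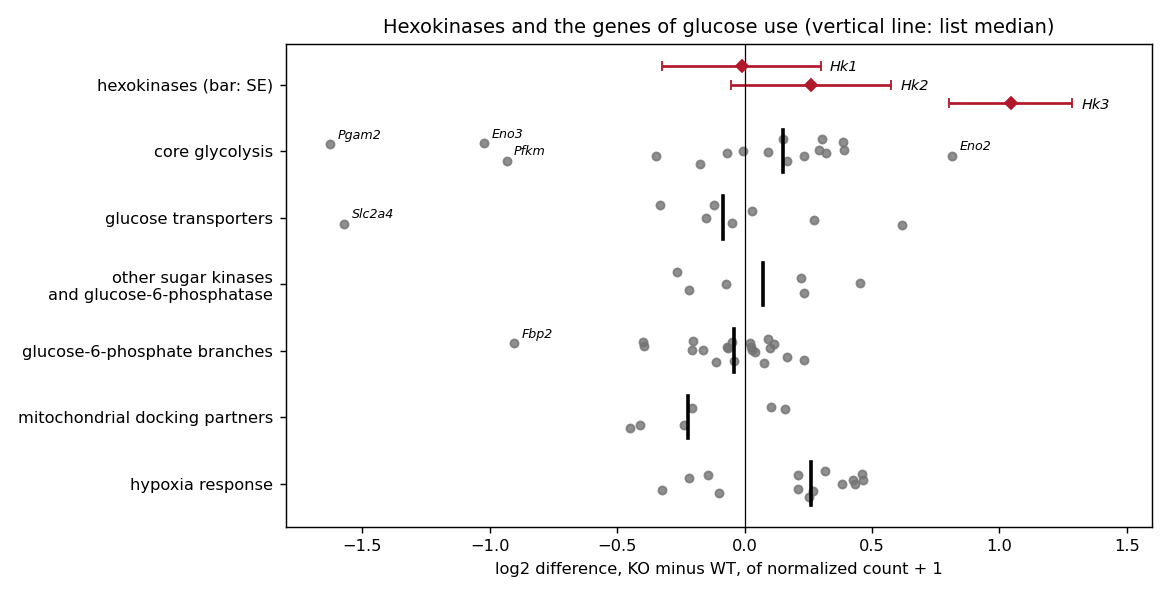
Log2 difference (KO minus WT, normalized count plus 1) of Hk1, Hk2 and Hk3 (red diamonds with SE) and of the 72 tested genes in 6 lists (grey points), with list medians as vertical lines. Hk3 lies at 1.04, above every gene of the lists, and the muscle isoforms Pgam2 and Slc2a4 lie lowest at -1.63 and -1.57.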

How the data were processed

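Total RNA of frozen tumour sections was depleted of ribosomal RNA and sequenced, per the labels' protocols. The authors deposited gene-level signal values, read counts divided by a size factor per library. All values (100%) were whole multiples of 1 read within 0.0001 of a read, and the recovered reads ran from 8609756 to 19934428 per library. The submitters' processing notes name bcl2fastq 2.17 and the genome build GRCm38. The aligner, the counter and the use of strand and molecular identifiers are not given in the sources used here.

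The 35 rows of spike-in RNA (0.151% to 0.545% of reads) were left out. Of the rest, 17940 genes averaging 10 or more normalized counts were tested with limma 3.58.1 (R 4.3.3, intensity trend, log2 of the value plus 1, Benjamini-Hochberg adjustment at 0.05). edgeR 4.0.16 and DESeq2 1.42.0 ran on the recovered reads as alternatives. Symbols and exon lengths came from GENCODE M21. The limma step was tested on simulated data. Permutations within genotype were enumerated in full (14400 arrangements), in place of the planned resampling. Members, lists and tests were chosen with earlier results of these data known, and the check of the knocked-out gene is not reported here. No source ties libraries to separate animals, so p-values measure the spread between libraries, and precision from depth covers counting error only. Genes named beside the members are the 5 most like each, and in each list the 3 with the highest level per kilobase and the 3 with the smallest p, cited as far as needed. Eno3 and Ly6g were chosen after their values were seen. Figures were drawn with matplotlib 3.10.9.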

Additional observations from a re-analysis of the deposited data

How the results depend on the processing

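The log2 difference of Hk3, by whose contrast the family was chosen, was 0.84 to 1.21 over 28 alternatives, 0.88 to 1.18 with 1 library left out and 1.08 with DESeq2, the only fit that called it. This range supports nothing. Hk1 changed sign in 8: it was 0.379 within the libraries without the RESUB prefix, 0.0977 and 0.621 with the macrophage and epithelial levels as terms and 0.154 with GC and length trends removed, and ran from -0.226 to 0.27 with 1 library left out (positive without KO4, KO5, WT3 or WT4). Hk2 changed sign with the RESUB prefix as a term (-0.0541) and within the prefixed libraries (-0.185), and ran from 0.000144 to 0.447 with 1 library left out, lowest without WT2. The causes were not tested.

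The number of genes called was 121 with DESeq2, 52 within the libraries without the prefix, where WT5 stands alone for WT and is assumed to vary like the others, and 0 within the prefixed libraries (KO5 alone for KO), with WT2 and WT5 averaged (both numbered 170) or with the 3 libraries highest in keratinocyte markers (WT2, WT3, WT5) left out. It ran from 0 to 3 with 1 library left out. No pathway gene was called under any of 23 alternatives. The order of members kept its direction, but 5 libraries allow no p below 0.0625: Hk2 over Hk1, Hk2 over Hk3 and Hk1 over Hk3 were 1.36, 1.62 and 0.253 in KO alone and 1.09, 2.4 and 1.31 in WT alone. The count of member and list pairs past the threshold ran from 0 to 1 with 1 library left out. Same-numbered libraries deviated together at number 3 but not at every number, so the numbers were not taken as pairs (correlations of 0.015, 0.0989, 0.522, 0.0262 and -0.229 for numbers 1 to 5). With the replicate block 1 gene was called and Hk3 was at 1.04. The list-level terms, the GC and length correction and, for order and correlations, the average of WT2 and WT5, and leaving out libraries between members, were chosen after seeing the data. Hkdc1 gave no value under any setting. With 145 to 576 reads, counting error is a small part of the spread of Hk3. It is not small beside the gap of 3.37 normalized counts between KO1 and WT3, which it could close.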
